A study of Mus musculus with 5 samples.

Results

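The genes described here are the cadherins and protocadherins of mouse sympathetic neurons at E14.5, measured by RNA sequencing of neurons with and without the hypoxia-inducible factor gene *Hif1a*. Members were the protein-coding genes of the count table whose symbol is Cdh followed by digits or begins with Pcdh, and that had 10 or more reads summed over the 5 libraries. By that rule there were 74 members among the 20224 genes of the table, of which 14 were Cdh genes, 8 were non-clustered protocadherins and 52 belonged to the clustered arrays (12 Pcdha, 21 Pcdhb and 19 Pcdhg). Just inside the limit were *Pcdhb15* with 11 reads and *Cdh24* with 12, and just outside it were *Pcdhga9* with 7 reads, *Cdh17* with 6, and *Pcdh8* and *Pcdhga6* with 5 each. A further 14 genes of these names, among them *Cdh1*, *Cdh3*, *Cdh5* and *Pcdh12*, were not analysed here.

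Cadherins are calcium-dependent adhesion proteins that bind the like molecule on a neighbouring cell. The type I and type II classical cadherins reach the actin cytoskeleton through catenins and sort cells into layers, nuclei and fascicles. Protocadherins have a longer extracellular part and no catenin-binding tail. In the clustered arrays each neuron switches on a small, partly random set of isoforms, each from its own promoter, and this set gives the cell a surface identity by which its own neurites recognise and avoid each other. Alpha and gamma isoforms are made by splicing 1 variable exon to constant exons shared by the whole array, whereas each beta gene is a single exon of its own.

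Both groups were fluorescence-sorted sympathetic neurons from embryos of non-diabetic pregnancies, and each library was made from 100 cells positive for both reporters. Control embryos had *Hif1a* loxP/+ and Hif1aCKO embryos had loxP/loxP, and both carried Isl1Cre, the tdTomatoAi14 reporter that Cre switches on, and the Prph-eGFP transgene, so the controls had lost 1 allele where Cre acted. Isl1Cre acts in every Isl1-expressing cell, sensory and motor neurons included, and the mice were of mixed C57BL/6J, C57BL/6N and FVB background. The controls gave 2 libraries, numbered 5 and 6, and Hif1aCKO gave 3, numbered 3, 4 and 5, each with 8254211 to 9700887 counted reads. The labels call them biological samples without tying each to an embryo or litter, so p-values measure only the spread between these libraries.

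*Hif1a* itself had 2086 and 1584 normalized counts (reads scaled to equal library size) in the controls and 2747, 1758 and 2135 in Hif1aCKO, a log2 fold change of 0.27 (SE 0.22) with overlapping groups. Exon 2 is the deleted part and the counts cover all exons, so this total does not check the deletion. All 12 sympathetic neuron markers were detected, and their summed level was 98327 to 119287 in the controls and 83817 to 87569 in Hif1aCKO, without overlap. The markers did not all go this way, since 9 had a log2 fold change below 0 and 3 above. The groups were apart in 7 that were lower and 1 that was higher, beside 12.9% of all genes in each direction. The higher one was *Hand2*, with 1292 and 1090 in the controls and 1486, 1974 and 1911 in Hif1aCKO. The summed glial markers stood apart in Hif1aCKO replicate 3 at 1153, of which the glial fatty acid binding protein *Fabp7* made up 993, against 30.6 to 56.2 in the other libraries. The chromaffin list, which shares granins with sympathetic neurons, summed to 8466 and 11261 in the controls and 3114, 7650.1 and 4004 in Hif1aCKO, without overlap. Its defining gene *Pnmt* had 29.2 and 51.0 against 18.2, 2.996 and 10.7, without overlap. The granin *Chgb* had 5514 and 8696 against 776, 4732 and 1106, while the groups overlapped in *Chga*. The endothelial list was low, at 69.8 and 88.1 against 67.5, 57.9 and 54.5, also without overlap. The mesenchymal list summed to 3.71 to 26.3, with *Cldn5*, *Tek*, *Pdgfra* and *Dcn* not analysed here. In bulk libraries fewer cells of a type and less RNA per cell cannot be told apart, and the part of these shifts in the results that follow was not tested.

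N-cadherin, *Cdh2*, dominated the family. It gave 1294 and 1207 normalized counts in the controls and 1306, 1280.2 and 1291 in Hif1aCKO. The highest and lowest of the 5 libraries were thus 1306 and 1207, and the log2 fold change was 0.05 (SE 0.14, edgeR quasi-likelihood adjusted p = 0.965). Of all reads on the 14 Cdh genes, *Cdh2* took 59.0% to 70.8% in each library. R-cadherin, *Cdh4*, which can pair with N-cadherin, had 247 and 274 in the controls and 178, 182 and 309 in Hif1aCKO, so that replicate 5 exceeded both controls and the other replicates lay below them (log2 fold change -0.22, SE 0.32). The muscle cadherin *Cdh15* was at 0 in both controls and at 6.43, 3.99 and 6.81 in Hif1aCKO. Against a floor of 3 reads per library this was at least 1.95-fold higher, on 4 to 7 reads a library, and the gene was too low to be tested.

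Among the type II cadherins *Cdh6*, a cadherin of migrating neural crest, was the most abundant. It had 178 and 410.0 normalized counts in the controls and 264, 239 and 129 in Hif1aCKO. The control libraries were farther apart than the groups, and the log2 fold change of -0.48 (SE 0.43) became 0.24 without control replicate 6. *Cdh22* had 45.8 and 36.2 against 31.1, 66.9 and 44.8. *Cdh11*, known from mesenchyme and also used by neurons, had 7.29 and 48.2 against 18.2, 5.99 and 8.76. Neither separated the groups, and leaving out control replicate 6 turned the *Cdh11* log2 fold change from -1.33 (SE 1.04) to 0.58.

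The remaining type II genes were each carried by 1 or 2 libraries. *Cdh19*, a marker of Schwann cell precursors, had 51 reads in Hif1aCKO replicate 3 and none in the other 4 libraries. That was the library with the high glial markers, where the glial receptor *Erbb3* had 53.6 normalized counts against 0 to 2.08 elsewhere. *Cdh12* had 45.9 normalized counts in Hif1aCKO replicate 4 and at most 1.04 in any other library, and *Cdh7* had 34.1 in Hif1aCKO replicate 5 and at most 3.71 elsewhere. *Cdh10* had 26.0 in control replicate 6 and 24.7 in Hif1aCKO replicate 3, with 0 to 2.00 in the rest. The single high library was a different one for each of *Cdh19*, *Cdh12* and *Cdh7*, and in none of the 3 genes did all Hif1aCKO libraries exceed the controls.

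Of the cadherins outside the classical types, T-cadherin *Cdh13*, which is held in the membrane by a lipid anchor, had 45.8 and 31.5 normalized counts in the controls and 2.14, 35.9 and 13.6 in Hif1aCKO (log2 fold change -1.16, SE 1.01). Hif1aCKO replicate 4 lay between the controls, and the log2 fold change was -2.27 without it and -0.64 without replicate 3. *Cdh23* had 2.08 and 1.85 against 3.22, 3.99 and 8.76, and *Cdh26* had 6.25 and 5.57 against 7.51, 0.999 and 0, and both were too low to be tested.

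**Figure D1:**
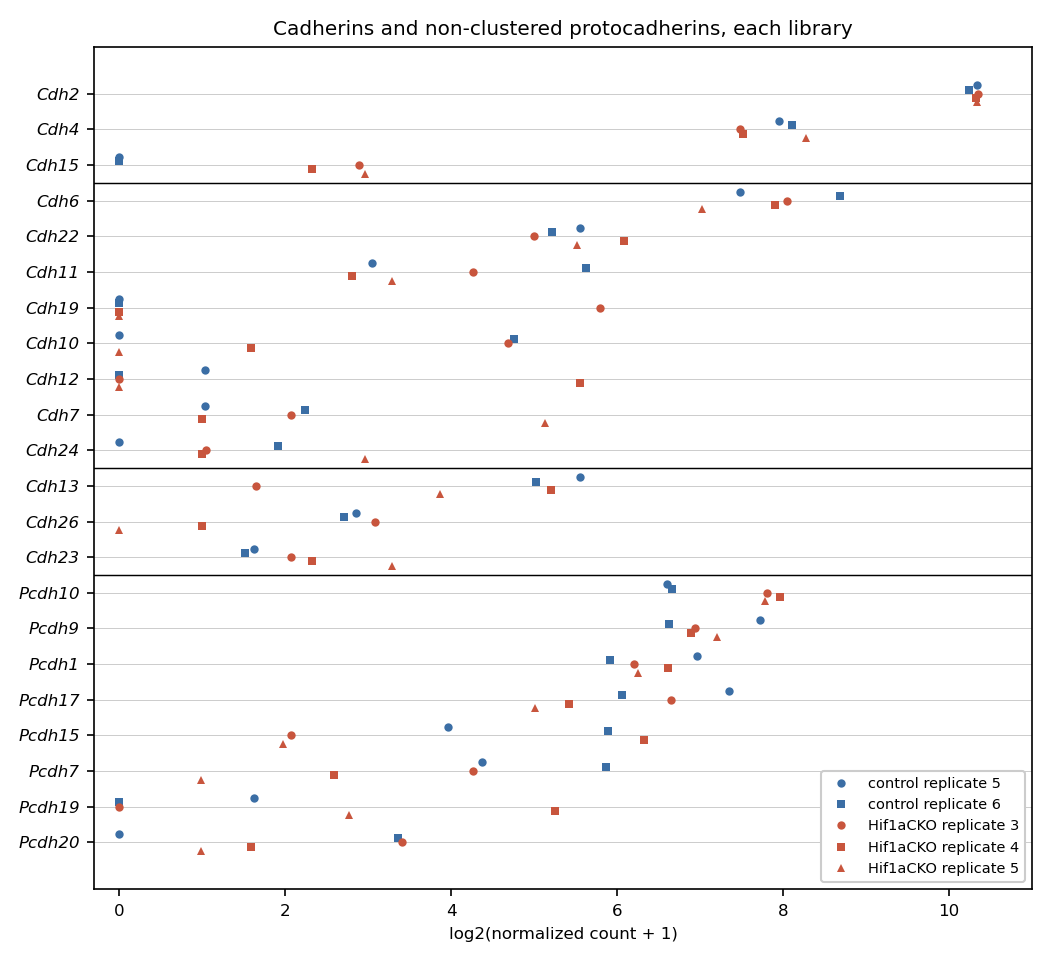
Each point is 1 library's log2(normalized count + 1) for the 22 Cdh and non-clustered protocadherin members, with controls in blue, Hif1aCKO in red and lines between the type I, type II, other Cdh and non-clustered groups. *Cdh2* is the highest with its 5 points together, *Pcdh10* has its groups apart, and *Cdh19*, *Cdh12* and *Cdh7* are each high in 1 library.

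*Pcdh10*, an adhesion protein whose tail recruits the WAVE actin regulator, was the member whose groups were most cleanly apart. It had 95.8 and 100.2 normalized counts in the controls and 222, 248 and 219 in Hif1aCKO. The group means were 98.0 ± 3.07 (SD, n = 2) and 230 ± 15.8 (SD, n = 3), so the lowest Hif1aCKO library was above the higher control by far more than the spread within either group. The fold was 2.34 (log2 fold change 1.23, SE 0.28), with an unadjusted p of 0.0023 by edgeR's quasi-likelihood test over all genes that did not pass after Benjamini-Hochberg adjustment (adjusted p = 0.586). DESeq2 gave an adjusted p of 0.056, also above the threshold. Leaving out any 1 library kept the log2 fold change between 1.17 and 1.26. An antisense transcript, 1700027H10Rik, overlaps 0.969% of the exonic bases of *Pcdh10*, and the counting tool's default does not use strand, so reads of the gene and its antisense partner cannot be told apart there.

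*Pcdh17*, of the same delta-2 subfamily and with the same WAVE-binding tail, had 161 and 65.8 normalized counts in the controls and 99.7, 41.9 and 31.1 in Hif1aCKO. Its groups overlapped and its log2 fold change was -0.98 (SE 0.61, edgeR adjusted p = 0.734). It was -0.20 without control replicate 5 and -1.63 without Hif1aCKO replicate 3. The 250 bases before the start of each gene are printed so that the pair can be compared in this knockout of a transcription factor. HIF1 binds DNA at the core letters ACGTG or GCGTG, which are in capitals on either strand. The sequences are RefSeq promoter windows on GRCm38.p6, both on the plus strand, at chr3:45378148-45378397 for *Pcdh10* and chr14:84443313-84443562 for *Pcdh17*.
Pcdh10: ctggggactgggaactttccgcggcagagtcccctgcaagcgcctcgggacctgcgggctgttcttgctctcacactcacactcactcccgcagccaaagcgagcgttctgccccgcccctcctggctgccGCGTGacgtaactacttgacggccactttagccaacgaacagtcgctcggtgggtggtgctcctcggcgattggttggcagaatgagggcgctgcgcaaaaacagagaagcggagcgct
Pcdh17: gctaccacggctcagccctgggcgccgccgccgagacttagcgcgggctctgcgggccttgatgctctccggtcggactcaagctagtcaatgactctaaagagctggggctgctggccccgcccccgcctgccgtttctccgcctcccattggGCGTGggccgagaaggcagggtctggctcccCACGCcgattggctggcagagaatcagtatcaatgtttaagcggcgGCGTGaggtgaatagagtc
The *Pcdh10* window held 1 match and the *Pcdh17* window 3, each of them GCGTG or its reverse complement. Such matches are common, since 38.6% of the 32817 promoter windows held at least 1, and 8 of the 16 members with a window did. A match is a run of letters and not a measured binding site.

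The other non-clustered protocadherins did not pass the test either. *Pcdh7* had 19.8 and 57.5 normalized counts in the controls and 18.2, 4.99 and 0.973 in Hif1aCKO. All Hif1aCKO libraries lay below the controls, although replicate 3 was only just below control replicate 5, and the log2 fold change was -2.25 (SE 1.13, edgeR unadjusted p = 0.081). It was -3.65 without Hif1aCKO replicate 3 and -1.29 without control replicate 6. *Pcdh9* had 209 and 97.4 against 121, 118 and 146, and *Pcdh1* had 124 and 59.4 against 72.9, 96.9 and 74.9. In both genes all Hif1aCKO libraries lay between the controls. *Pcdh15*, known with *Cdh23* from the tip links of hair cells, ranged from 2.92 to 78.9 without separating the groups. *Pcdh19*, the X-linked gene of a female-limited epilepsy, had 37 reads in Hif1aCKO replicate 4 and 0 to 6 in every other library, and *Pcdh20* had at most 9.65 normalized counts.

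The clustered protocadherins all lie on chromosome 18, from 36939205 to 37841873 on GRCm38 by the GENCODE M21 annotation. How their reads could be counted differs between the arrays. Of the exonic bases of a Pcdha member 48.6% to 83.2% are shared with another annotated gene, and of a Pcdhg member 31.5% to 100%. The annotation gives each gene the constant exons, and some genes also overlap a neighbour, such as *Pcdhga4*, which shares 66.7% with *Pcdhgb1*, or *Pcdhga10*, which shares 55.2% with Gm26672. By its default the counting tool drops a read that overlaps several genes, so reads on shared bases are assigned to none of them and the alpha and gamma values cover the bases of 1 gene alone. The Pcdhb members had a median of 0% shared. *Pcdhga10* had no unshared base in this annotation release and still had reads in every library, so its value rests on the annotation the counting used. Near-identical coding exons within an array can also lose reads that align to several places.

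In the Pcdha array every library had nearly all isoforms. The summed level was 475 and 582 normalized counts in the controls and 450, 455 and 430.1 in Hif1aCKO, and no library had more than 1 of the 12 genes at 0. The highest levels were those of *Pcdha11*, *Pcdha12*, *Pcdha9* and *Pcdha10*. *Pcdha11* had 25 and 148 in the controls and 114, 65.9 and 63.2 in Hif1aCKO. *Pcdha12* had 108 and 101 against 42.9, 37.9 and 111. The libraries of 1 genotype thus differed from each other by more than the group means did in *Pcdha11*, and Hif1aCKO replicate 5 was above both controls in *Pcdha12*.

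*Pcdha8* was the alpha gene with separate groups. It had 15.6 and 14.8 normalized counts in the controls and 31.1, 47.9 and 54.5 in Hif1aCKO, and its lowest Hif1aCKO library was above both controls. The log2 fold change was 1.54 (SE 0.67), with an edgeR unadjusted p of 0.0497 and an adjusted p of 0.648. The C-type isoforms, which sit at the end of the array nearest the constant exons and are expressed more uniformly between neurons, did not stand out. *Pcdhac1* had 12.5 and 13.0 against 34.3, 24.96 and 0, and *Pcdhac2* had 57.3 and 28.7 against 10.7, 31.9 and 38.9. *Pcdhac1* was at 0 in Hif1aCKO replicate 5 while the other Hif1aCKO libraries were above both controls.

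The Pcdhb array varied most. Its sum was 767 and 661 normalized counts in the controls and 751, 601 and 277 in Hif1aCKO, where replicate 5 was far below the other 4 libraries. Each library had 3 to 6 of the 21 genes at 0, and 14 of the genes were at 0 in at least 1 library. *Pcdhb17* had 136 and 165 in the controls and 119, 59.9 and 27.3 in Hif1aCKO (log2 fold change -1.14, SE 0.56). *Pcdhb7* had 170 and 124 against 68.6, 103 and 14.6 (log2 fold change -1.24, SE 0.67). In both of these, the most abundant beta genes, all Hif1aCKO libraries lay below the controls and replicate 5 was the lowest, without which the log2 fold changes were -0.75 and -0.77. *Pcdhb14* had 62.5 and 16.7 against 78.3, 51.9 and 28.2, and *Pcdhb20* had 32.3 and 36.2 against 78.3, 55.9 and 0.

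*Pcdhb13* had 48.9 and 13.0 normalized counts in the controls and 1.07, 0 and 0 in Hif1aCKO. That was 61 reads in the controls and 1 in Hif1aCKO, a ratio of 88.6 with a 95% exact counting interval of 15.3 to 3558, which covers counting error only. The fitted log2 fold change was -6.05 (SE 1.43), with an edgeR unadjusted p of 0.0028 and an adjusted p of 0.586. Only the reads of the controls made the gene high enough for this test. DESeq2 gave an adjusted p of 0.067, and edgeR's likelihood ratio test gave 0.012. Its upstream neighbour *Pcdhb12* had 15.6 and 10.2 in the controls and no read in any Hif1aCKO library, at least 4.24-fold lower against a floor of 3 reads per library. It was not tested, and 63.5% of its exonic bases are also annotated to Gm37446. The genes on either side did not share this pattern, since *Pcdhb11* had 17.7 and 0 against 66.5, 3.99 and 0, and *Pcdhb14* was detected in every library.

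*Pcdhb22*, the last gene of the array, went the other way, with 9.37 and 0.928 normalized counts in the controls and 19.3, 86.9 and 11.7 in Hif1aCKO. The groups did not overlap, but the gap between control replicate 5 and Hif1aCKO replicate 5 was small beside the range within Hif1aCKO (log2 fold change 2.92, SE 1.30, edgeR unadjusted p = 0.054). Only the reads of Hif1aCKO made the gene high enough to be tested. The log2 fold change was 1.58 without Hif1aCKO replicate 4 and 5.22 without control replicate 5. It shares 6.88% of its exonic bases with *Pcdhb21*, which had 31.3 and 0 against 20.4, 9.99 and 28.2.

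The Pcdhg array had sums of 549 and 597 normalized counts in the controls and 567, 452 and 638 in Hif1aCKO. *Pcdhga12* was its most abundant member, with 152 and 57.5 against 90.1, 123 and 130.4, and *Pcdhgc4*, the C-type isoform needed for survival of interneurons, had 54.2 and 71.4 against 44.0, 106 and 96.3. *Pcdhgb6* had 75.0 and 57.5 against 41.8, 75.9 and 44.8, and *Pcdhgb7* had 35.4 and 65.8 against 45.03, 41.9 and 82.7. None of these separated the groups. *Pcdhgc3* had 40.6 and 68.6 against 75.1, 43.9 and 22.4, and *Pcdhgc5*, known as a late isoform, was low at 12.5 and 3.71 against 12.9, 4.99 and 2.92.

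*Pcdhga7* had 31.3 and 37.1 normalized counts in the controls and 9.65, 3.99 and 5.84 in Hif1aCKO. Every Hif1aCKO library was below both controls by more than the spread within either group, with means of 34.2 ± 4.14 (SD, n = 2) and 6.49 ± 2.88 (SD, n = 3). The log2 fold change was -2.38 (SE 0.85), with an edgeR unadjusted p of 0.024 and an adjusted p of 0.621, and it stayed between -2.77 and -2.13 with each library left out. Only the reads of the controls made *Pcdhga7* high enough to be tested. *Pcdhgb2* had 10.4 and 14.8 against 2.14, 0 and 9.73, so that its groups did not overlap by a margin of less than 1 normalized count (log2 fold change -1.64, SE 1.42).

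**Figure D2:**
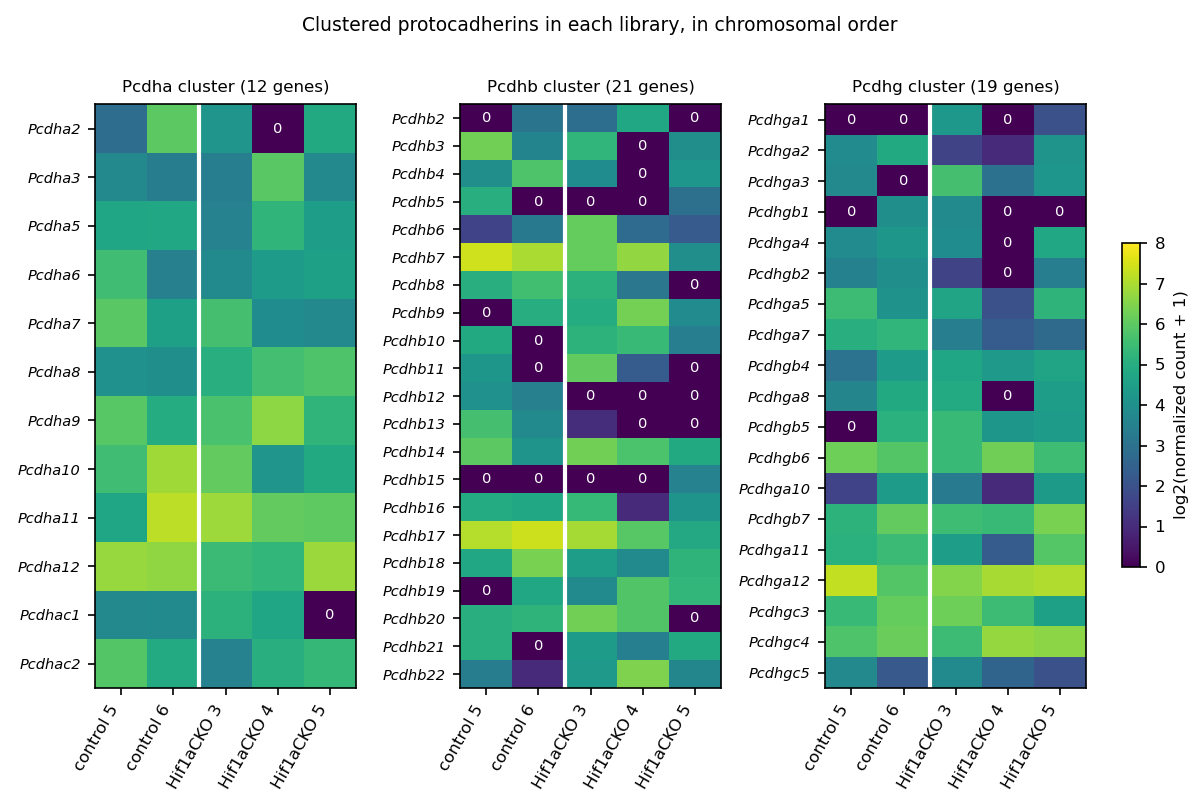
Colour gives log2(normalized count + 1) of each of the 52 clustered members (rows, in chromosomal order) in each library (columns), with the controls left of the white line and a 0 where no read was counted. The Pcdhb panel has the most zeros, and *Pcdhb12* and *Pcdhb13* are dark in all Hif1aCKO columns.

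Isoform by isoform, the clustered genes differed more between libraries of the same genotype than most genes did. A gene-wise biological coefficient of variation was taken within genotypes as the square root of edgeR's dispersion. That value leaves out counting noise and is drawn toward the trend for genes of like level. It was above the trend in 32 of the 46 clustered members tested (69.6%), against 32.1% of all 15032 genes tested. The share was 87.5% of the 16 Pcdhb members, 61.1% of the 18 Pcdhg members and 58.3% of the 12 Pcdha members, and the median ratio to the trend was 1.31, 1.07 and 1.02. Of the 13 Cdh and non-clustered members tested 46.2% were above it, with *Cdh2* and *Pcdh10* at 0.779 and 0.784 times the trend. These shares are descriptions, and the genes of an array come from the same libraries.

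The same held among genes of like level. Between 17.9 and 45.8 mean normalized counts, the middle of the clustered members' range, the median within-genotype SD of log2(normalized count + 1) was 1.69 for 22 clustered members and 0.808 for 2009 other genes. In this range 10 of the 22 clustered members (45.5%) were at 0 in at least 1 library, against 8.61% of the other genes. In 6 of the 22 (27.3%) 1 library held at least 50% of the normalized counts, against 9.71%. The library that was highest for an isoform was control replicate 5 for 11 of the 52 members, control replicate 6 for 12, Hif1aCKO replicate 3 for 13, replicate 4 for 10 and replicate 5 for 6. Other genes were not counted this way, and what Hif1aCKO replicate 3, with its glial markers, added to the spread was not tested.

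**Figure D3:**
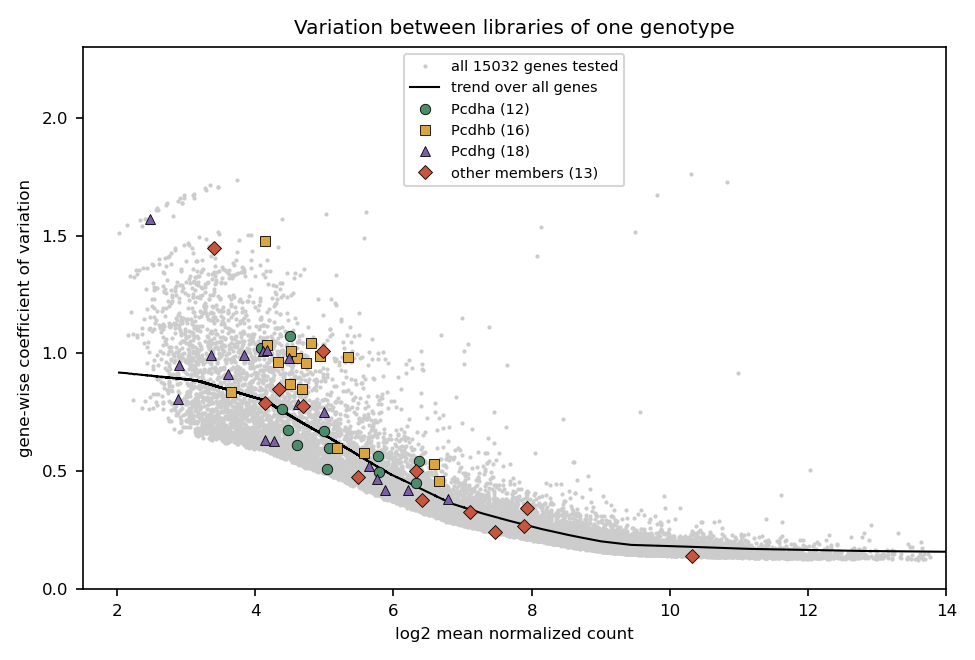
The gene-wise biological coefficient of variation (square root of edgeR's dispersion) is plotted against the log2 mean normalized count. All 15032 genes tested are in grey, with the trend as a line and the tested members in colour. Most Pcdhb squares lie above the line, at 14 of 16, and *Cdh2*, the diamond farthest right, lies below it.

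Summed over each array, the coefficient of variation over the 5 libraries was 12.5% for the Pcdha sum, 12.4% for the Pcdhg sum and 32.5% for the Pcdhb sum, where Hif1aCKO replicate 5 was the low library. Over all 52 clustered members the sum was 1791 and 1840.2 in the controls and 1768, 1509 and 1346 in Hif1aCKO, so that each Hif1aCKO library was below both controls, replicate 3 by little. The number of clustered members at 0 was 7 and 7 in the controls and 3, 12 and 8 in Hif1aCKO.

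**Figure D4:**
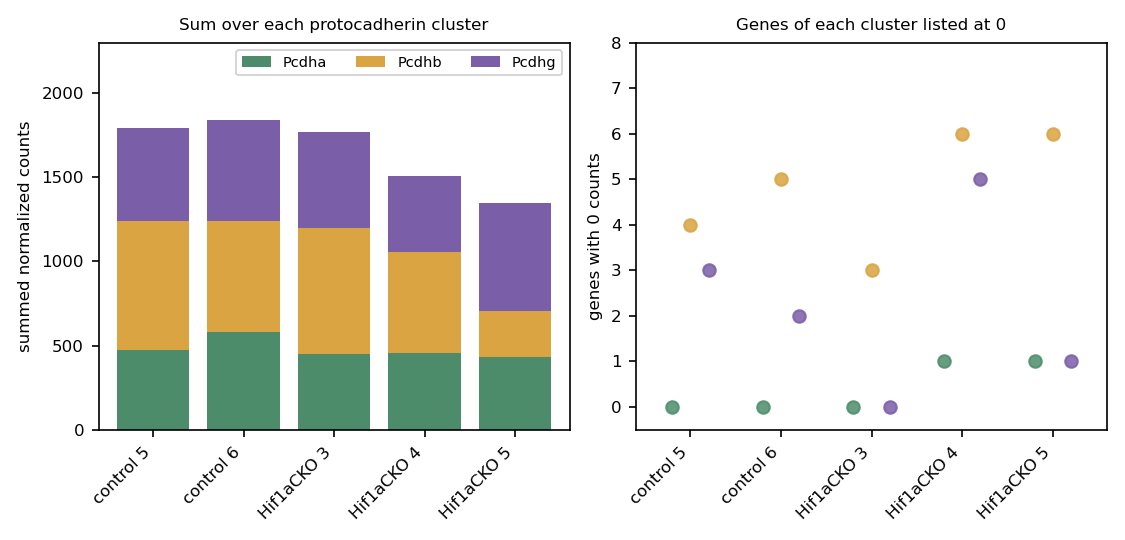
The left panel stacks the summed normalized counts of the 3 protocadherin arrays in each library and the right panel gives the number of genes of each array with 0 counts there. The Pcdha and Pcdhg blocks are of similar height throughout, and the Pcdhb block is smallest, at 277, in Hif1aCKO replicate 5.

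Per kilobase of exon, the order of the members' levels changed with how shared exons were treated. On all exonic bases *Cdh2* had 158 normalized counts per kilobase, followed by *Cdh4* at 32.8, *Pcdhb7* at 27.4, *Cdh6* at 27.0, *Pcdhb17* at 21.8 and *Pcdh9* at 20.4. On bases that no other gene covers *Cdh2* was again first, but *Pcdha11* at 65.5 and *Pcdha12* at 41.3 came next, and 6 of the 10 highest members were common to both orders. The median Pcdha level was 5.84 per kilobase on all bases and 12.5 on unshared bases, while the median Pcdhb level was 4.68 on both. *Pcdh10*, with 15888 exonic bases, had 11.1 per kilobase.

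Taking the members as a set, 59 of 74 were high enough to be tested between genotypes, 46 of them clustered. None was called at an adjusted p below 0.05 with an absolute log2 fold change above 0.3 and a mean of at least 50 normalized counts, and edgeR called 0% of all 15032 genes. The median of the members' means was 22.7, so most of them could not be called whatever their p. *Pcdhb13*, *Pcdhga7* and *Pcdha8* were among those. At an unadjusted p under 0.05 there were 2 higher members (*Pcdh10* and *Pcdha8*, 3.39%) and 2 lower (*Pcdhb13* and *Pcdhga7*, 3.39%), beside 3.83% and 3.85% of all genes. Both lower members passed the filter on low counts only through the controls, where they were higher. Without Hif1aCKO replicate 3 the count in both directions was 9 of 54 (16.7%), beside 12.1% of all genes under the same setting. The groups did not overlap in 3 members that were higher in Hif1aCKO (5.08%) and 6 that were lower (10.2%), against 12.9% of all genes in the higher direction and 12.9% in the lower. With all libraries and the quasi-likelihood test the share of members past either mark was thus no larger than that of genes at large. At the p mark it was larger with any 1 Hif1aCKO library left out (8.47% to 16.7%, beside 6.36% to 12.1%). Without a control only 1 control library is left, and counts at the p mark are not given. The share was also larger without the filter on low counts (8.11%, beside 6.74%). So it was by the likelihood ratio test (8.47%, beside 8.28%) and limma-voom (8.47%, beside 8.15%). It was smaller with RLE (6.78%, beside 7.67%) and upper-quartile scaling (6.78%, beside 7.83%) and a stricter filter (7.69%, beside 8.87%). Those shares rest on few members, and where a library was left out the filter was rerun, so the members tested changed too. DESeq2 called 0.388% of the 15478 genes it gave an adjusted p. It called none of the 74 members, 9 of which had no adjusted p. At an unadjusted p under 0.05 it had 7 of the 74 (9.46%), beside 7.06% of 20171 genes.

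The median log2 fold change of the 59 members was -0.23, with 21 above 0 and 38 below, beside 0.01 for all genes tested. It was 0.01 without control replicate 5 and 0.01 without control replicate 6, each over 66 members. The filter on low counts was rerun there and let in members carried by a single library, such as *Cdh19*. The libraries and the set of genes thus changed together, and their parts in the shift were not told apart. By group the median was -0.35 for the 6 classical cadherins tested, -0.31 for the 6 non-clustered protocadherins, -0.38 for Pcdha, -0.11 for Pcdhb and -0.22 for Pcdhg.

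**Figure D5:**
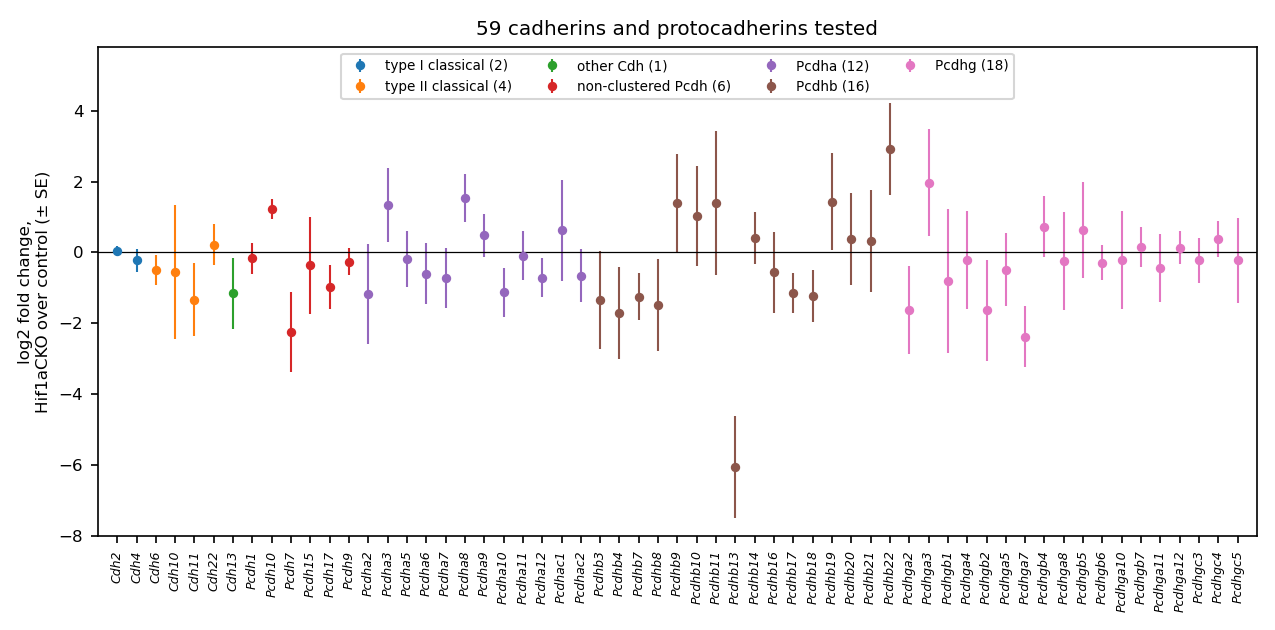
Points give the log2 fold change of Hif1aCKO over control for the 59 members tested and bars 1 SE of the fit, coloured by group, with the clustered arrays in chromosomal order. *Pcdh10* is high with a short bar, *Cdh2* is at 0.05, and most clustered members have bars that cross 0.

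The genes that cadherins and protocadherins work through were followed in lists of known partners. Of the 11 catenins and linkers tested none passed. Beta-catenin *Ctnnb1*, the core partner of classical cadherins, had 2212 and 1650.0 normalized counts in the controls and 1769, 1815 and 2127 in Hif1aCKO. The neuronal alpha-catenin *Ctnna2* had 684 and 1089.8 against 634, 483 and 508 (log2 fold change -0.71, SE 0.24, edgeR unadjusted p = 0.016, adjusted p = 0.621), below both controls in every Hif1aCKO library. The alpha-catenin-like *Ctnnal1* had 228 and 242 against 419, 332 and 457 (log2 fold change 0.78, SE 0.24, unadjusted p = 0.011, adjusted p = 0.599 by edgeR), above both controls in each.

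Among 11 atypical cadherins tested, 8 had a log2 fold change above 0 and 3 below, beside 51.3% of all genes tested above 0. By edgeR 3 had an unadjusted p under 0.05, beside 7.67% of all genes tested, and none passed. These 3 are few, and the list was not tested as a set. The giant cadherin *Dchs2*, 1 of these 3, had no read in either control and 12.9, 36.9 and 4.87 normalized counts in Hif1aCKO. That was at least 6.17-fold higher against a floor of 3 reads per library. Only the reads of Hif1aCKO made *Dchs2* high enough to be tested. Its binding partner *Fat4* had 116 and 128 against 165, 193 and 264 (log2 fold change 0.77, SE 0.32), with the groups apart. The receptor *Ret*, which carries cadherin-like domains, had 998 and 340.4 against 1691, 884 and 1726 and overlapped (log2 fold change 1.10, SE 0.46).

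Of 11 regulators of promoter choice in the clustered arrays none passed, 6 were above 0 and 5 below. *Ctcf*, the DNA-looping protein that binds the clustered promoters, had 544 and 633 in the controls and 756, 806 and 752 in Hif1aCKO (log2 fold change 0.39, SE 0.17, edgeR unadjusted p = 0.048, adjusted p = 0.647). All Hif1aCKO libraries were above both controls, as they were for the cohesin subunits *Rad21* (log2 fold change 0.29, SE 0.16) and *Smc1a* (0.15, SE 0.12). The methyltransferase *Dnmt3b* had 25 and 53.8 against 48.2, 56.9 and 90.5.

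Protocadherin effectors, which include the WAVE complex that *Pcdh10* and *Pcdh17* bind, had 6 genes above 0 and 6 below of 12 tested, and none had an unadjusted p under 0.05. The largest differences were those of the kinase *Ptk2b* (log2 fold change -0.96, SE 1.12) and *Wasf3* (0.49, SE 0.46). In the list of cadherin processing enzymes 1 of 7 tested was above 0 and 6 were below, and none passed. The proprotein convertase *Furin*, which matures cadherins, had 22.9 and 5.57 against 67.5, 26.0 and 52.5 (log2 fold change 1.77, SE 0.84), with its groups apart. Of the repressors of *Cdh1*, 3 were above 0 and 2 below among 5 tested. The largest was *Tcf3* with 447 and 312 against 453, 556 and 711 (log2 fold change 0.60, SE 0.26), followed by *Snai2* (0.44, SE 0.81).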

How the data were processed

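RNA was taken from 5 libraries of 100 sorted cells. Per the labels, the authors trimmed reads with cutadapt 1.18, used Bowtie 1.2.2, and aligned with STAR 2.7.0c to GRCm38. Their methods add rRNA removal and gene counting with Rsubread without multi-mapping reads. The deposited values are raw counts per gene, and the tool's stated default settings do not use strand. From these counts, genes were filtered by edgeR's filterByExpr and fitted with TMM scaling and the quasi-likelihood test (edgeR 4.0.16, R 4.3.3), with Benjamini-Hochberg adjustment over 15032 genes. Normalized counts are counts per 8747702 effective reads, the mean of the libraries, and 3 reads are worth 2.78 to 3.22 of them. Standard errors are the log2 fold change over the square root of the F statistic. Alternatives were DESeq2 1.42.0, limma-voom (limma 3.58.1), edgeR's likelihood ratio test, RLE and upper-quartile scaling, no filter or a stricter one on low counts, and leaving out each library. No 2 libraries agreed within sampling noise.

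On data simulated from these libraries the test called 54 of 200 genes changed 2-fold (14913 tested) and 160 of 200 changed 4-fold (14932 tested). The changed genes were drawn from those with a mean of at least 50 normalized counts, and every gene varied as the trend. These rates therefore do not carry over to most members, which were lower and often more variable than the trend. An exact permutation test of 1 gene over these 5 libraries cannot go below 0.1. Genes were named and located by GENCODE M21. The methods state release M8, and 29 gene IDs of the table were not in M21. One of 2 genes named *Pcdha11* there was called *Pcdha10*, after its position in RefSeq. The members and lists were chosen with earlier results of these data known. Named members were the 4 with the highest counts of each group, those with an unadjusted p under 0.05, those whose groups did not overlap, the C-type isoforms and a few classical cadherins. From each list were named the genes with an unadjusted p under 0.05 and the 2 largest differences, except 1 that is not reported here, and any other member or list gene was chosen after its values were seen.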

Additional observations from a re-analysis of the deposited data

How the results depend on the processing

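No paired analysis was possible because the groups shared only 1 replicate number. No setting called a member. Members at an unadjusted p under 0.05 were 4 of 59, 7 of 74 by DESeq2 and 2 of 26 where 10 counts were required in every library, a filter that left fewer genes tested. They were 5 to 9 with 1 Hif1aCKO library left out (8.47% to 16.7% of those tested, beside 6.36% to 12.1% of all genes), most without replicate 3. The filter on low counts was rerun for each library left out. It kept 54 to 59 members without a Hif1aCKO library and 66 without a control. Members whose groups did not overlap were 9, 4 under the filter of 10 counts in every library, and 15 to 32 with 1 library left out, where fewer libraries have to be apart (25.4% to 48.5%, beside 37.4% to 50.7% of all genes). Where a control is left out, the lone control is taken to vary like the other group. Counts at the p mark are therefore not given there. The members' median log2 fold change was -0.46 by limma-voom, and its range with 1 library left out was -0.26 to 0.01.

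Of 370 fold changes of 32 named members under other settings, 346 kept their direction and side of the threshold, 23 changed direction and 1, *Pcdhb13* by the likelihood ratio test, passed on adjusted p alone, its mean being too low for a call. By limma-voom the log2 fold change became 0.28 for *Pcdha11*, -0.89 for *Pcdhac1* and -1.53 for *Pcdhb20*, and the cause was not tested. The other 20 followed the loss of 1 library. With 1 library left out in turn, the ranges of these were -0.007 to 0.097 for *Cdh2*, -0.96 to 0.24 for *Cdh6*, -0.11 to 0.44 for *Cdh22*, -2.13 to 0.58 for *Cdh11*, -0.71 to 0.40 for *Pcdh9* and -0.61 to 0.46 for *Pcdh1*. In the arrays they were -0.0097 to 1.06 for *Pcdha9*, -0.87 to 1.68 for *Pcdha11*, -0.0295 to 1.21 for *Pcdhac1*, -0.25 to 1.65 for *Pcdhb14*, -0.29 to 0.97 for *Pcdhb20*, -0.22 to 0.67 for *Pcdhgb7*, -0.42 to 0.99 for *Pcdhga12*, -0.72 to 0.21 for *Pcdhgc3* and -0.85 to 0.87 for *Pcdhgc5*.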
